A study of Mus musculus with 2 samples.

Results

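The guide arm miR-21a-5p (mmu-miR-21a-5p) and the passenger arm miR-21a-3p (mmu-miR-21a-3p) are the mature products of a single mouse gene, Mir21a. They were taken by name from the miRNA tables of the exosome libraries, and they are 2 of the 1915 distinct mature miRNAs listed there. Each arm was listed once in each library and had reads in both. CT26 is an established Balb/C mouse colon carcinoma line. Small RNA was sequenced from 1 library of exosomes of parental CT26 cells, which were kept in complete DMEM with exosome-depleted serum while exosomes were collected, and from 1 library of exosomes of CT26-SDCSCs, the sphere-derived cancer stem cells grown for 2 weeks in serum-free DMEM/F12 with N2 supplement, 10 ng/ml EGF and 10 ng/ml bFGF. RNA fragments of 18 to 40 nucleotides entered both libraries. With 1 library for each condition no difference has a replicate check, and cell state, medium and preparation cannot be told apart. A test on such reads bears on the libraries sequenced and says nothing of how the conditions vary.

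A miRNA precursor folds back on itself, and the enzymes Drosha and Dicer cut it to a short duplex of a 5p and a 3p strand. Usually one strand, the guide, is loaded into an Argonaute protein and pairs through its seed, bases 2 to 8, with sites in the 3′ untranslated regions of target mRNAs, while the other strand, the passenger, is mostly degraded. The miR-21 guide is among the miRNAs most often described as raised in solid tumours, colorectal cancer included, and as lowering tumour-suppressive and signal-dampening genes. Exosomes are small vesicles that cells release and that carry miRNAs among other RNAs.

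The mature sequences are shown because the seed separates the guide from its passenger and from miR-21b, but not from miR-21c. They are the RefSeq entries on GRCm38.p6, 5′ to 3′, with the seed in capitals.
miR-21a-5p: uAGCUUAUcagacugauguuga
miR-21a-3p: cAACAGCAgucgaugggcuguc
miR-21b: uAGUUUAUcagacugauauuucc
miR-21c: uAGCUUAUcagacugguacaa
The miR-21a arms lie on the minus strand at chr11:86584120-86584141 (5p) and chr11:86584082-86584103 (3p). The whole precursor, of 92 bases, lies at chr11:86584067-86584158, inside the last exon of Vmp1 on the same strand, where GENCODE M21 annotates the 3′ UTR of the transcript Vmp1-201 from 86583865 to 86585310. Vmp1 codes for a membrane protein of autophagy. In the predicted minimum free energy fold of the precursor, 19 of the 22 bases of the 5p arm were paired with the 3p arm, among them all 7 seed bases.

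miR-21b, from chr3:29636768-29636790, and miR-21c, from chr8:128278188-128278208, are near-identical relatives of the guide. Counted from 1 at the 5′ end of miR-21a-5p, miR-21b differs by C4U, G18A, G21U and A22C, so its seed is another one. miR-21c differs by A16G, G18A, U19C, U20A and G21A and has the same first 15 bases and the same seed. Among the 1679 mature names of the RefSeq table, miR-21c was the 1 other miRNA with the seed of miR-21a-5p, and 0 shared the seed of miR-21a-3p. Of the listed miRNAs 292 have no entry in that table and were not searched, among them miR-590-5p, commonly placed in the seed family of miR-21, which had 0 reads in both libraries. In parental exosomes miR-21b and miR-21c had 1 read each, and in SDCSC exosomes each had 0 of 3964 reads, which allows a share of up to 0.0757%. Reads that fit more than 1 of these names could not be separated, since the way such reads were assigned for the deposited values is not stated, but with both relatives added the counts of the guide moved by 2 reads in parental exosomes and by 0 in SDCSC exosomes.

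The letters that pair with the guide's seed are ATAAGCT, and ATAAGCTA when an A follows. They were looked for in the strand of the mRNA, in the longest annotated 3′ UTR of each of 21002 protein-coding genes, where ATAAGCT occurred in 7.19% and ATAAGCTA, which contains it, in 2.10%. Pdcd4 (an inhibitor of translation), Reck (a membrane inhibitor of matrix proteases), Spry1 (an inhibitor of receptor tyrosine kinase signalling) and Timp3 (a secreted protease inhibitor) are textbook targets of miR-21, and each held ATAAGCTA once. The matches are printed with the letters that pair with bases 2 to 8, and the A after them, in capitals.
Pdcd4, chr19:53929432-53929439: ggtgttctgATAAGCTActttcta
Reck, chr4:43944407-43944414: cagtttgaaATAAGCTAttaatgt
Spry1, chr3:37643873-37643880: agtgcttaaATAAGCTAtatatta
Timp3, chr10:86348227-86348234: gagctttcaATAAGCTAtagcttt
All 4 genes are on the plus strand of GRCm38. The mRNAs were not measured in these libraries, so these letters describe the genes alone.

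The guide mmu-miR-21a-5p was deposited at an RPM value, that is reads on a scale with the same sum in each library, of 40093 in parental and of 188371 in SDCSC exosomes. The value of 1 read was 27.31 RPM in the parental and 217.77 RPM in the SDCSC table, which gives 1468 and 865 reads. Of all miRNA reads, 32162 in parental and 3964 in SDCSC exosomes, these were 4.56% (95% Wilson interval 4.34 to 4.80%) and 21.8% (20.6 to 23.1%). Its share was thus higher in SDCSC exosomes by 17.3 percentage points. The ratio of the shares was 4.78 (exact 95% interval 4.39 to 5.20), or 2.26 on the log2 scale, with an adjusted p of 1.14e-261 by Fisher's exact test (two-sided, on reads, adjusted over the 336 miRNAs with any read). At its parental share the guide would have had 181 reads in the SDCSC library. With 1 library for each condition such intervals cover counting error at most. Amplified reads are not independent molecules, so the intervals and p-values may understate even that error. More vesicles that carry a miRNA cannot be told apart from more copies in each.

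In the order of abundance miR-21a-5p was at rank 5 of 328 miRNAs with a read in parental exosomes and at rank 1 of 124 in SDCSC exosomes. Its parental neighbours were miR-92a-3p, with 1743 reads or 5.42% (5.18 to 5.67%), and miR-191-5p, with 1277 reads or 3.97% (3.76 to 4.19%). Neither interval overlapped that of miR-21a-5p, so its rank was resolved at this depth. In SDCSC exosomes it had 2.41 times the reads of the next miRNA, miR-100-5p, with 359 reads or 9.06% (8.20 to 9.99%). miR-99b-5p, at rank 1 in parental exosomes with 3927 reads or 12.2%, was at rank 10 in SDCSC exosomes with 120 reads or 3.03%.

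**Figure D1:**
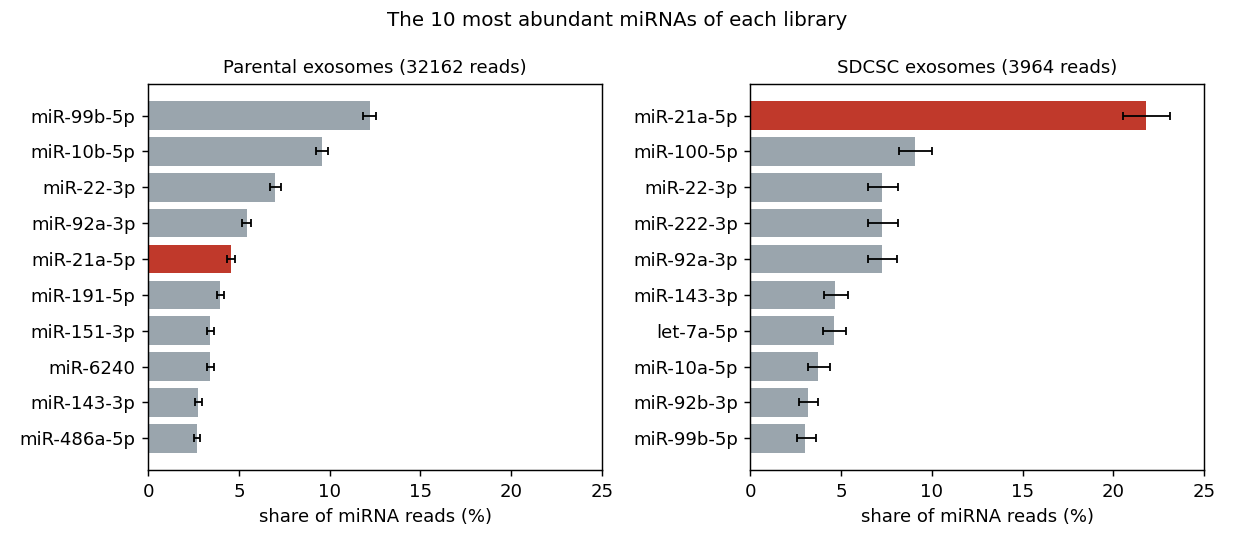
The 10 most abundant miRNAs of parental (left) and SDCSC exosomes (right) by share of miRNA reads in percent, 1 library each, with 95% Wilson intervals of counting error as error bars and miR-21a-5p in red. The guide moved from rank 5 with 4.56% to rank 1 with 21.8%, well clear of miR-100-5p at 9.06%.

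The passenger mmu-miR-21a-3p was at 518.91 RPM in the parental and 2613.24 RPM in the SDCSC table, that is 19 and 12 reads. Its shares were 0.0591% (95% Wilson interval 0.0378 to 0.0923%) and 0.303% (0.173 to 0.528%). The SDCSC share was 5.12-fold the parental one (exact 95% interval 2.27 to 11.1), a log2 ratio of 2.36 with an adjusted p of 0.000561 in the same Fisher's exact test. At the parental share 2.34 reads would have been found in place of 12. Both counts lie above the 3 reads taken as the smallest that can be shown, but the interval spans a wide range of ratios. The passenger was at rank 102 of 328 in parental exosomes, a count it shared with 2 other miRNAs, and at rank 35 of 124 in SDCSC exosomes. Neither rank was resolved, since 2 miRNAs had 22 and 3 had 18 parental reads, and 2 miRNAs each had 13 and 11 SDCSC reads.

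Both arms passed the 1.5-fold line upwards. So did 37.9% of the 116 miRNAs with a read in each library, some of them with 1 SDCSC read. Both arms also had an adjusted p under 0.05 in Fisher's exact test, reached together with that fold by 16 miRNAs. These were 4.76% of the 336 miRNAs with any read, but only the 116 with a read in each library could be counted. The libraries together gave 50 reads or more for 68 miRNAs. Among these, whose median log2 ratio was -0.81, 20 had a higher and 48 a lower share in SDCSC exosomes. By its ratio miR-21a-5p was at rank 4 of the 68, below miR-92b-3p, miR-222-3p and miR-100-5p, whose intervals lay wholly above its own. It was therefore the most abundant miRNA of the SDCSC library and not the one with the largest ratio.

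The 5 miRNAs of at least 50 reads nearest to the guide in log2 ratio, over these 2 libraries, were let-7a-5p at 1.76 (exact 95% interval 1.51 to 2.02), miR-31-5p at 1.68 (1.10 to 2.24), miR-29a-3p at 1.21 (0.66 to 1.73), miR-27a-3p at 0.99 (0.33 to 1.61) and miR-100-5p at 3.67 (3.43 to 3.91). The interval of miR-31-5p, with 96 and 38 reads, reached into that of miR-21a-5p, from 2.13 to 2.38 on the log2 scale. The intervals of the other 4 did not.

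**Figure D2:**
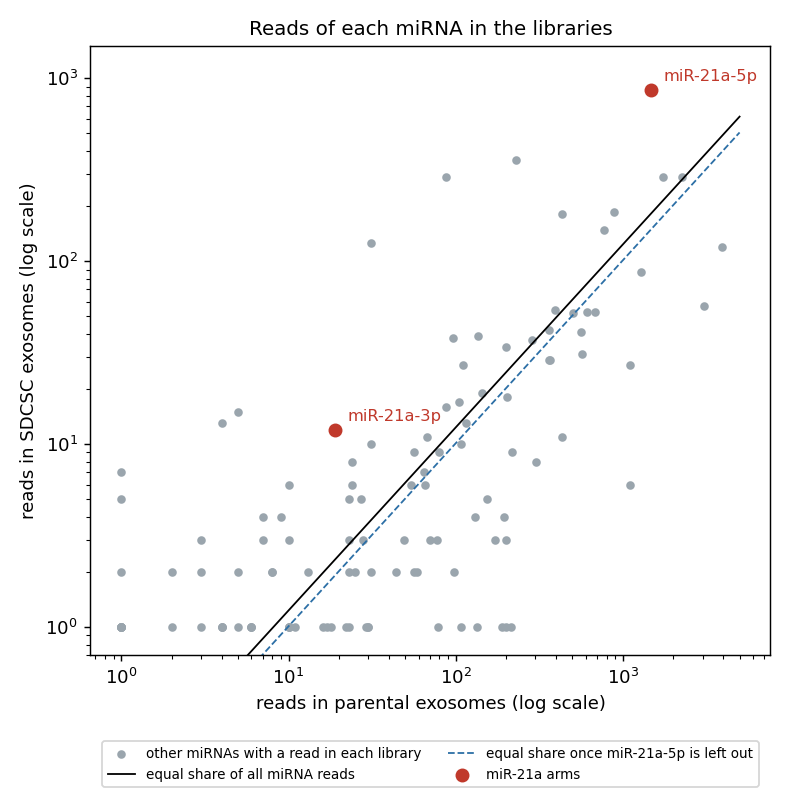
Reads of each miRNA with a read in each library, parental on the x axis and SDCSC on the y axis, both on log scales, with the miR-21a arms in red. The solid line marks equal shares of all miRNA reads and the dashed line equal shares once miR-21a-5p is left out of both totals. Both arms lie above both lines, at 1468 and 865 reads (5p) and at 19 and 12 reads (3p).

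The ratio of the arms is measured within a library and needs no scaling. In parental exosomes 1468 reads of miR-21a-5p stood against 19 of miR-21a-3p, a ratio of 77.3. In SDCSC exosomes it was 865 against 12, a ratio of 72.1. The passenger therefore made up 1.28% of the 1487 parental reads of both arms (95% Wilson interval 0.820 to 1.99%) and 1.37% of the 877 SDCSC reads (0.784 to 2.38%). The SDCSC ratio was 0.93 times the parental one (exact 95% interval 0.43 to 2.12), with p = 0.853 by Fisher's exact test, two-sided. At the parental arm share 11.2 passenger reads were to be found in the SDCSC library, and 12 were. A difference in arm ratio was not detectable at this depth, and the interval leaves room for a ratio up to 2.12 times higher or down to 0.43 times the parental one.

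Arms were paired by name, which left out precursors whose minor arm has a locus number in its name, such as miR-125b-1-3p. Of those paired, 10 precursors had at least 50 reads of both arms together in each library. The arm ratio differed between the libraries with an adjusted p under 0.05, over these 10, for 10% of them, namely for miR-222 alone. Its 5p arm had 16 of 104 reads in parental exosomes and 1 of 289 in SDCSC exosomes (adjusted p = 3.1e-08, Fisher's exact test). For 5 precursors, those of miR-100, miR-10a, miR-143, miR-191 and miR-22, the minor arm had 0 reads in both libraries. The minor arms of miR-99b (19 and 0 reads), miR-27b (6 and 0 reads) and miR-10b (1 and 0 reads) were seen in parental exosomes alone. In SDCSC exosomes miR-21a-3p was the most abundant of the minor arms paired by name, with 12 reads. The other 10 such arms with a read had fewer, and the median over these 11 was 1 read. In parental exosomes miR-21a-3p was at rank 8 of the 64 minor arms so paired. miR-125b-1-3p, left out of that order, had 172 parental reads. Such an order depends on the depth of each precursor. Of the 10 compared, miR-21a had the most SDCSC reads of both arms, 877, and miR-100 followed with 359. Of the 46 precursors paired by name with at least 50 parental reads, 24 had a larger minor arm share than miR-21a. Its 1.28% lay close to their median of 1.52%. Of the 11 precursors paired by name with at least 50 SDCSC reads, 0 had a larger minor arm share than miR-21a. A smaller one was found for 1, and 9 had a minor arm at 0 reads. Among those left out, miR-181a-5p had 54 SDCSC reads and miR-181a-1-3p 2, a larger minor arm share but on 2 reads. The Wilson intervals of several zeros, such as those of miR-191 (up to 4.23%) and miR-10a (up to 2.53%), reached above the 1.37% of miR-21a. Those of miR-100 (up to 1.06%) and miR-22 (up to 1.32%) did not.

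**Figure D3:**
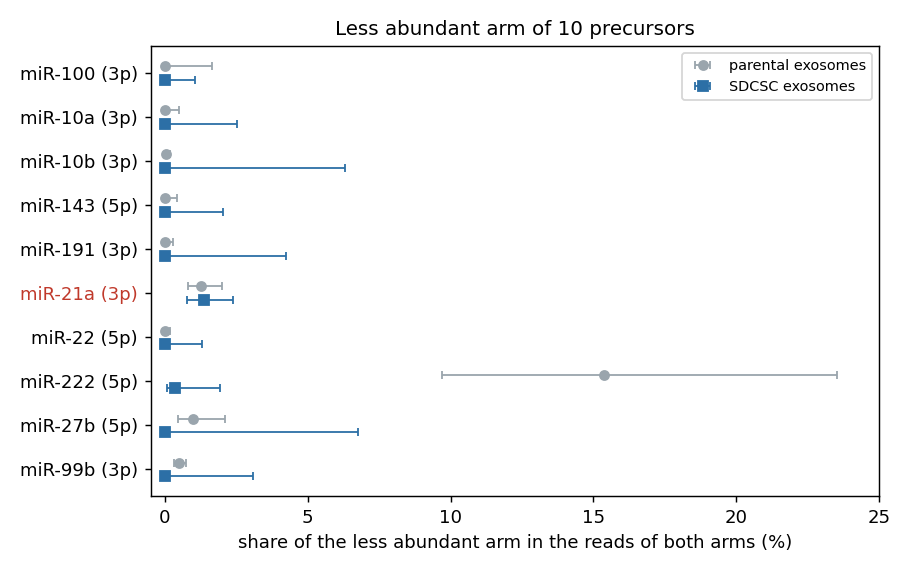
Share of the less abundant arm (named in parentheses) in the reads of both arms, in percent. Shown are the 10 precursors with arms paired by name and at least 50 reads in each library. Circles are parental and squares SDCSC exosomes, and bars are 95% Wilson intervals of counting error. The miR-21a values, 1.28% and 1.37%, overlap, whereas miR-222 moved from 15.4% to 0.346%.

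Because shares add up to the whole, the guide's share sets how much is left for the rest. All other miRNAs together held 95.4% of reads in parental and 78.2% in SDCSC exosomes. Leaving miR-21a-5p out of both totals, which left 30694 and 3099 reads, multiplied the share of every other miRNA by 1.05 in parental and by 1.28 in SDCSC exosomes. Every other log2 ratio thus moved up by 0.29, or 1.22-fold. The share of miR-100-5p in SDCSC exosomes went from 9.06% to 11.6%, and that of miR-99b-5p in parental exosomes from 12.2% to 12.8%.

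In each library 10 miRNAs led the order, with 55.0% of parental and 71.8% of SDCSC reads. Their 9 members other than miR-21a-5p held 16213 of 32162 parental and 1982 of 3964 SDCSC reads, shares within 1 point of each other, so the gap between the libraries was about that of the guide. When the guide was left out and the 10 most abundant of the remaining miRNAs were taken, they held 55.6% and 66.8% of what was left. The SDCSC reads were thus still concentrated more in their leading miRNAs.

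Of the 114 miRNAs other than the arms with a read in each library, 42 had an SDCSC share at least 1.5-fold higher and 41 one that was lower by that fold. Among all 116 miRNAs the lower ones were 35.3%. With the guide left out of both totals the counts were 52 and 35, and the median log2 ratio went from -0.01 to 0.27. Without any library scaling they were 8 and 98. Those that also had an adjusted p under 0.05 in Fisher's exact test went from 14 higher and 23 lower to 16 and 17. Among all 116 miRNAs with a read in each library, 16 had been called higher and 23 lower, the latter 6.85% of the 336 with any read. The number of miRNAs on either side of 1 went from 57 and 57 to 64 and 50. Where parental reads are few, 1 SDCSC read alone passes the line upwards, as for miR-93-3p with 4 and 1 reads (2.03-fold). With the guide in the totals, 10 were higher and 10 lower by 1.5-fold among miRNAs with at least 10 reads in each library.

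The miRNAs that crossed a line are named where they had at least 20 reads in all. Of 10 that came to be at least 1.5-fold higher, 6 had that many, namely miR-92a-3p (0.42 with and 0.71 without the guide, on the log2 scale), miR-221-3p (0.46 and 0.75), let-7b-5p (0.39 and 0.68), let-7e-5p (0.58 and 0.87), let-7g-5p (0.38 and 0.67) and miR-148a-3p (0.41 and 0.70). The 6 that were no longer 1.5-fold lower were miR-191-5p (-0.86 and -0.57), let-7f-5p (-0.77 and -0.48), miR-26a-5p (-0.66 and -0.37), miR-199a-3p (-0.63 and -0.35), miR-199b-3p (-0.63 and -0.34) and miR-15b-5p (-0.62 and -0.34). miR-199a-3p and miR-199b-3p are near-identical and may hold the same reads. A change of sign was seen for 7, miR-16-5p, miR-98-5p, miR-26b-5p, miR-181b-5p, miR-30e-5p, miR-320-3p and miR-125b-5p, which went from between -0.25 and -0.08 to between 0.04 and 0.21. The exact 95% interval of each of these 7 included 0 with the guide in the totals, so the reads did not settle their sign in the first place. Likewise, each miRNA named as crossing a 1.5-fold line had an interval that contained that line with the guide in the totals. That of miR-92a-3p ran from 0.23 to 0.60 and that of miR-191-5p from -1.19 to -0.54. The reads thus did not settle on which side of the line these miRNAs lay.

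**Figure D4:**
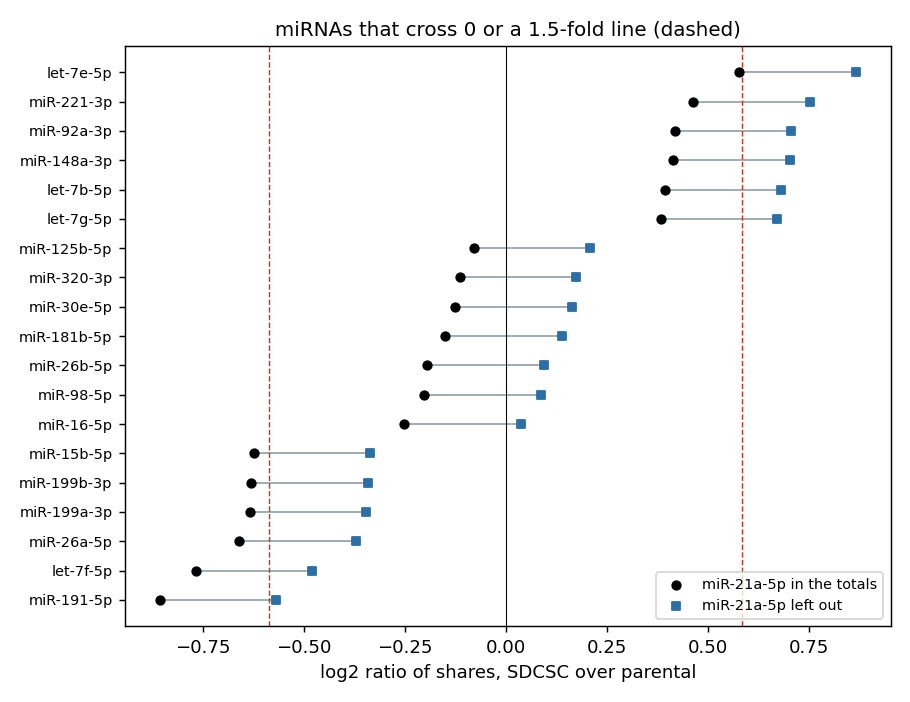
Log2 ratio of shares (SDCSC over parental) of the 19 miRNAs with at least 20 reads in all that cross 0 or a 1.5-fold line (dashed) when miR-21a-5p is left out of both totals. Circles are ratios with the guide in the totals and squares without it, and every square lies 0.29 to the right of its circle.

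Other miRNAs often described as raised in tumours were set beside the guide as a list of 15, of which 13 had a read in either library and 9 in each. Of these 9, SDCSC exosomes had a share at least 1.5-fold higher for 3 and correspondingly lower for 2, and 2 and 1 of them also had an adjusted p under 0.05 in Fisher's exact test. Over all 116 miRNAs with a read in each library the shares beyond the line were 37.9% and 35.3%. With the test 16 and 23 of these 116 were called, or 4.76% and 6.85% of the 336 with any read. The median log2 ratio of the 9 was 0.44, against 0.06 over all 116 miRNAs with a read in each library. That median is the value of miR-182-5p, with 6 parental reads and 1 SDCSC read. Its exact interval ran from -5.09 to 3.48. The values next to it in order, 0.42 for miR-92a-3p and 0.46 for miR-221-3p, were close and rested on more reads. Whether the list as a whole was higher was not tested. miR-222-3p, which lowers the cell cycle inhibitor p27, had 88 parental and 288 SDCSC reads (log2 ratio 4.73), and miR-31-5p had 96 and 38. miR-92a-3p, of the miR-17~92 cluster, had 1743 and 287 reads (0.42), and miR-221-3p, which shares the seed of miR-222-3p, had 200 and 34 (0.46). The hypoxia-induced miR-210-3p was lower, with 78 and 1 reads (-3.27, adjusted p = 0.0139 in Fisher's exact test). Reads summed over the list were 7.10% of the parental and 16.6% of the SDCSC library, less than miR-21a-5p alone in the latter. Of these sums, miR-222-3p alone made up 0.274% of the parental and 7.27% of the SDCSC library.

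A list of 13 miRNAs often described as lowered in tumours had 10 members with a read in either library and 4 with one in each. Of these 4, 1 lay beyond the 1.5-fold line on either side, and the higher one, miR-143-3p, a miRNA of mesenchymal cells, had an adjusted p of 9.88e-09 in Fisher's exact test (888 and 185 reads, log2 ratio 0.76). Over the 116 miRNAs 37.9% lay above and 35.3% below. The median log2 ratio of the 4 was 0.09, against 0.06 over all miRNAs with a read in each library. Over the 10 with a read in either library, with 0.5 reads added where one had 0, it was -0.66, against 0.21. That -0.66 lay between miR-497a-5p (7 and 0 reads) and miR-1a-3p (5 and 0 reads), and 0.21 is the value of 3 and 0 reads. Both follow from parental counts and the added 0.5, so they do not show whether the list was lower. miR-16-5p had 502 and 52 reads (-0.25), and miR-133a-3p, which is best known from muscle, had 120 and 0 reads and was lower with an adjusted p of 1.74e-05 in Fisher's exact test.

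Summed over their markers, blood cells, muscle and endothelium had lower shares in SDCSC exosomes. With a read in either library sufficing, 3 of 6, 1 of 3 and 1 of 2 markers were at least 1.5-fold lower. Their adjusted p was under 0.05 in Fisher's exact test. Counted in the same way, 31 of all 336 miRNAs with any read were lower. The 6 blood cell markers, among them miR-451a (88 and 0 reads) and miR-486a-5p (856 and 0 reads), were counted with 1181 parental reads and 1 SDCSC read, that is 3.67% and 0.0252% of miRNA reads. The 3 muscle markers had 125 and 0 reads, the 2 endothelial markers 145 and 1, and the liver marker miR-122-5p 0 and 0. With the markers of blood, muscle and endothelium left out of the totals, the log2 ratios were 2.19 for miR-21a-5p and 2.29 for miR-21a-3p, and 40 other miRNAs were past 1.5-fold upwards and 41 downwards. miR-486b-5p, with 853 and 0 reads, was not among the listed markers and stayed in these totals. Of the 7 epithelial markers, which would mark a colon epithelium, miR-200a-3p, miR-200c-3p and miR-141-3p were at 0 in both libraries, miR-200b-3p had 0 and 1 reads, and miR-192-5p, miR-194-5p and miR-215-5p had 48, 5 and 2 parental reads and 0 SDCSC reads each. The exact 95% interval of the log2 ratio of miR-192-5p reached up to -0.63, with an adjusted p of 0.0574 in Fisher's exact test. The reads of all 7 summed to 55 and 1. The parental library held 8.11 times the reads of the SDCSC library. The share that 3 reads make up was 0.00933% in parental and 0.0757% in SDCSC exosomes.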

How the data were processed

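Small RNA of exosomes was measured in 1 parental and 1 SDCSC library. The authors clipped adapters, discarded reads shorter than 18 nucleotides with Trimmomatic and deposited an RPM value per miRNA entry, that is reads scaled to the same total over all entries of each library. The build per the labels was mm10. For the RNA content of exosomes the study's methods name the ncPRO-seq framework with RepeatMasker and Rfam features, and a normalization by reads shared among features. Whether the deposited RPM values were made in this way, with which aligner and which miRBase release, is not given in the sources used here. Reads were recovered as RPM over the smallest RPM above 0, and 100% of values above 0 were whole multiples within 2%. They summed to 36615 and 4592 reads over all entries. The highest entry of each name was kept, as 83 names had several, which left 32162 and 3964 reads.

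Ratios are of shares of these totals, and where one library had 0 reads, 0.5 was added to each. A log-scale test needs replicates, so reads were compared by two-sided Fisher's exact tests with Benjamini-Hochberg adjustment over 336 miRNAs, and by exact binomial tests under other scalings. Called means at least 1.5-fold apart, and with the test an adjusted p under 0.05. Intervals of ratios are exact conditional 95% intervals.

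The miR-21a arms, the lists and the tests were chosen with earlier results of these data known. Named miRNAs were the arms, miR-21b and miR-21c, miRNAs sharing a seed, neighbours in rank and among the 10 most abundant, the 5 nearest in ratio, those crossing a line with at least 20 reads, precursors with at least 50 reads in each library, and list members with at least 50 reads over both, besides the markers. The 4 target genes were chosen from textbook knowledge after the values were seen.

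Mature sequences came from RefSeq (GRCm38.p6), where 1623 of 1915 names matched, and loci from GENCODE M21. Python 3.11.15, scipy 1.17.1, pandas 2.3.3, numpy 2.4.6, edgeR 4.0.16 (TMM factors only) in R 4.3.3 and ViennaRNA 2.7.2 were used. Scripts were tested on simulated data.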

Additional observations from a re-analysis of the deposited data

How the results depend on the processing

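No paired analysis was possible because only 1 library stands for a condition, and none could be left out. The log2 ratios of both arms kept their direction and their side of the threshold under the median of ratios, TMM factors, totals without miR-21a-5p, totals without the 10 most abundant miRNAs of either library, sums of entries, the deposited RPM and totals without marker miRNAs, the last chosen after seeing the data. They lay between 2.19 and 3.02 for miR-21a-5p and between 2.29 and 3.12 for miR-21a-3p, the upper values without the 10 most abundant miRNAs. Without library scaling they were -0.76 and -0.66, since the parental library is deeper. Adding miR-21b and miR-21c gave 2.26 for the 5p arm, and for the 3p arm no relative's arm was listed. The arm ratio change was between 0.92 and 0.93 in all its settings. Against the total over all entries, by sums of entries or by the deposited RPM, the share of miR-21a-5p was 18.8% in SDCSC and 4.01% in parental exosomes. The other miRNAs at least 1.5-fold higher and lower were 8 and 98 without library scaling, 10 and 10 with at least 10 reads in each library, and 152 and 102 with a read in either. Among the 152 are 102 miRNAs with 0 SDCSC and at most 2 parental reads, whose higher ratio comes from the 0.5 reads added alone. Their counts stayed within 1.5 times of 42 and 41 under the other 5 settings, among them a fold of 2 (36 and 33). The depth of the SDCSC library limits the passenger arm most, at 12 reads.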
